A study of Homo sapiens with 8 samples.

Results

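Of 48662 regions of histone H3 lysine 27 acetylation (H3K27ac) found in ARID1A knockout cells, control cells or both, 1953 lay inside very long genes. Very long here means a protein-coding gene whose RefSeq span on hg38 is 500 kb or more. Regions were made by joining peaks of both genotypes that shared at least 1 bp on chromosomes 1 to 22 and X, and a region within 1 kb of either end of any protein-coding gene was left out. Each of the 1953 regions was classed as knockout-only (a peak in the knockout list alone), control-only (a peak in the control list alone) or shared. The genes numbered 314 of 19970 protein-coding genes (1.57%), with a median span of 723 kb.

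The study asked where H3K27ac differs when ARID1A is absent from MDA-MB-231, an established line of triple-negative breast cancer cells. It comprised 2 immunoprecipitated and 2 input libraries of ARID1A knockout cells, and the same numbers from control cells that carry the label NC. For each genotype 1 peak list was deposited, so every number below is 1 value per genotype, no spread between replicates exists and no test of the genotype was possible. The labels do not say how the knockout was made, whether it is 1 clone or a pool, or whether the libraries of a pair came from separate cultures. The sample characteristics give anti-H3K27ac as the antibody, while the extraction protocol speaks of H3K4me3 with the number ab8895; the regions are called acetylated after the characteristics.

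The knockout list held 42552 peaks and the control list 39797, and the background under a peak, taken as pileup plus 1 over fold, had a median of 6.05 in the knockout list and 4.48 in the control list. Fold is the authors' enrichment of a peak over its background, and is used here to rank or filter peaks within a list. Ends of 8 of 8 mesenchymal marker genes of such lines, VIM and ZEB1 among them, had a peak in both lists. Of 8 luminal or epithelial genes, 4 had one in both, ESR1 and ESRP1 in the knockout list alone, and PGR and CDH1 in neither. Of 8 neuronal genes, 3 had one in both, STMN2 in the knockout list alone, and 4 in neither.

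H3K27ac is laid down by the acetyltransferases p300 and CBP at active promoters and enhancers, and away from gene ends it is widely used to find enhancers. ARID1A is a subunit of the canonical BAF (SWI/SNF) chromatin remodelling complex, which slides and ejects nucleosomes and is known to act at enhancers. Very long genes are mostly intron; many serve neurons, as cell adhesion molecules, channels and synaptic scaffolds, and several coincide with common fragile sites, where replication finishes late. Their introns can hold enhancers, alternative promoters of the gene itself and starts of noncoding RNAs.

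Few of the regions held a listed transcription start, and these were nearly all shared. A start of the long gene itself lay in 55 regions, of which 3 were knockout-only, 3 control-only and 49 shared (89.1%). A start of a long noncoding RNA alone lay in 25 regions, 4 knockout-only, 0 control-only and 21 shared. Another coding gene started in 1 shared region. The 1872 regions with no start in the RefSeq table of promoter windows were 31.5% knockout-only, 17.6% control-only and 50.9% shared. That table had a window for 262 of the 314 genes, so starts of the other genes themselves could not be placed. The regions compared below are therefore mainly intragenic sites other than listed promoters.

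Among the listed internal starts, a single site in each of CELF2, KLF12 and PTPRM carried acetylation in the knockout list alone. A single site in each of PALM2AKAP2, SEMA6D and ANK3 carried it in the control list alone. Other internal starts of CELF2 and KLF12 lay in shared regions of higher fold. The shared region of KLF12 had a fold of 21.9 in the knockout list and 15.1 in the control list. In CELF2 the folds of such regions reached 14.4 in the control list. CELF2 encodes an RNA-binding splicing regulator, KLF12 a Krüppel-like repressor, PTPRM a receptor tyrosine phosphatase, SEMA6D a transmembrane semaphorin and ANK3 the membrane adaptor ankyrin-G, while PALM2AKAP2 joins paralemmin 2 to an anchor of protein kinase A. The windows that follow run 5′ to 3′ on the gene's strand over 300 bases, from 250 before a start to 50 after it, with CG dinucleotides in capitals; they show the promoters that differ between the lists in 5 of these 6 genes. Sequences are those of RefSeq on GRCh38.p14. The CELF2 window is chr10:11164780-11165079 on the plus strand and the KLF12 window chr13:74026839-74027138 on the minus strand. The PALM2AKAP2 window is chr9:109779948-109780247 on the plus strand, the SEMA6D window chr15:47717255-47717554 on the plus strand and the ANK3 window chr10:60140691-60140990 on the minus strand.
CELF2: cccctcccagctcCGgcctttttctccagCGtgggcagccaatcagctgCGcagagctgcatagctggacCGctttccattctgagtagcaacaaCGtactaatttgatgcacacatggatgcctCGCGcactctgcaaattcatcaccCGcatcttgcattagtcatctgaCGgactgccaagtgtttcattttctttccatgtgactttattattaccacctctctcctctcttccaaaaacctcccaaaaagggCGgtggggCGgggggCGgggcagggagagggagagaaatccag
KLF12: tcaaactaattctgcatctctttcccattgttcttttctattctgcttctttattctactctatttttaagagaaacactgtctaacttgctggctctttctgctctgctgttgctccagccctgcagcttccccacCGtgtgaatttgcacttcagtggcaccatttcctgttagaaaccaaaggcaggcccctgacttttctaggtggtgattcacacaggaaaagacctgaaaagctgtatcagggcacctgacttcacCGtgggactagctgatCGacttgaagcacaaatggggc
PALM2AKAP2: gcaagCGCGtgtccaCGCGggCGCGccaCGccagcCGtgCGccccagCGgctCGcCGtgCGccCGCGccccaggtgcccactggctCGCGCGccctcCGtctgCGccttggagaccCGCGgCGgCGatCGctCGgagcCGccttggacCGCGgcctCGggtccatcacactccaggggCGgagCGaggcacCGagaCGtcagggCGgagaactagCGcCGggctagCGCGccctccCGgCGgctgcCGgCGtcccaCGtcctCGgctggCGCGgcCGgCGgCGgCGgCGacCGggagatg
SEMA6D: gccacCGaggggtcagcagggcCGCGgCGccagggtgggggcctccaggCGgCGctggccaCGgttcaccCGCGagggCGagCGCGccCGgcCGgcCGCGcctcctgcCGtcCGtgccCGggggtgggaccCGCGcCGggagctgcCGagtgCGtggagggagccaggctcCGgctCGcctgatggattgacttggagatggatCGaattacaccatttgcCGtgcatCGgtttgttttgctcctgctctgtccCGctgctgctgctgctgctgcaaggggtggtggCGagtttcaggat
ANK3: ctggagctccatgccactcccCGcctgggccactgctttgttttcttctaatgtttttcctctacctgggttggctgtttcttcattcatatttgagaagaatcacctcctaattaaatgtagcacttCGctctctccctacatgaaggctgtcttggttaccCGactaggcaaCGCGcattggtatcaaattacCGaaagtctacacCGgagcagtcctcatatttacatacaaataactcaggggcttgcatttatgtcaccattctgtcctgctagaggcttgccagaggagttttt

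For comparison, the next windows are internal starts in shared regions of 3 genes that had many knockout-only regions elsewhere in their spans: FOXP1 (chr3:71064875-71065174, minus strand), KAZN (chr1:14923904-14924203, plus strand) and TENM3 (chr4:182448766-182449065, plus strand).
FOXP1: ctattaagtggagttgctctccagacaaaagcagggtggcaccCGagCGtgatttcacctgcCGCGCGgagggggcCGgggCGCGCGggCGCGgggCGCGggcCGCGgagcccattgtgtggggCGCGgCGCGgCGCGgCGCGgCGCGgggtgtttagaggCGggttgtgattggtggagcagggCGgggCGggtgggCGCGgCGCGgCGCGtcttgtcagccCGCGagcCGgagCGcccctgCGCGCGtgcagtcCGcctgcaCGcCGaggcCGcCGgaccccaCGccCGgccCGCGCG
KAZN: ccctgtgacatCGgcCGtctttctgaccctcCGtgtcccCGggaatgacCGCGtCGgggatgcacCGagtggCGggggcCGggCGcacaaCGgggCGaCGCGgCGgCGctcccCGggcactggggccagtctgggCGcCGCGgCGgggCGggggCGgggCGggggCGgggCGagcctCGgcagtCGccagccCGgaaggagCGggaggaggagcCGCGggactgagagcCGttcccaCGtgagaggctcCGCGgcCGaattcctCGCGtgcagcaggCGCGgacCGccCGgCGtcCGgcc
TENM3: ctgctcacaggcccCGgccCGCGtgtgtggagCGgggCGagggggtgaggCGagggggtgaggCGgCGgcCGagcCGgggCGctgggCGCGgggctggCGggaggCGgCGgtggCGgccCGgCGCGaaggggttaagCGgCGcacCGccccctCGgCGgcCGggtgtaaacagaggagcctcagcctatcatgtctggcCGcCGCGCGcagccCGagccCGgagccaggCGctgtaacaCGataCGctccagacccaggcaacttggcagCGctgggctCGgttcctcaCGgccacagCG

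The promoters seen in 1 genotype alone were of both kinds, rich and poor in CG. The PALM2AKAP2 window held 53 CG dinucleotides and the SEMA6D window 31, against 7 in the ANK3 window, 12 in the CELF2 window and 3 in the KLF12 window. The shared windows printed were rich in CG, with 51 in FOXP1, 46 in KAZN and 39 in TENM3. Other shared windows held 33 and 9 in KAZN and 1 to 6 in LPP. The 71 windows of 42 genes in shared regions had a median of 14, the same as all 35116 windows of the table. The letters TGANTCA, with any base at N, cover the core of sites bound by AP-1 factors but are looser than it. They read alike on both strands. They were in 1 of the 7 windows in genotype-only regions (that of KLF12, as TGATTCA) and in 18.3% of the 71 in shared regions, against 7.71% of all windows. Which matches hold the core itself was not counted. Several windows of 1 gene overlap, so they are not independent, and a match is not a bound site. In its own list the PALM2AKAP2 region had a fold of 7.82, against 4.03 for CELF2, 3.96 for PTPRM, 3.62 for KLF12, 2.93 for SEMA6D and 2.89 for ANK3.

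Inside very long genes, acetylation was more often seen in the knockout list alone than in the control list alone. Knockout-only regions numbered 597 (30.6%, 95% interval 28.5 to 32.7), control-only regions 333 (17.1%, 15.4 to 18.8) and shared regions 1023 (52.4%, 50.1 to 54.6). The background over all merged regions was 19.6% for knockout-only and 14.7% for control-only. The intervals are exact (Clopper-Pearson) and cover counting error only. All merged regions include gene ends, where 3.78% were knockout-only and 4.37% control-only; over all regions away from gene ends the shares were 24.7% and 18.1%. Beside those, the knockout-only share of very long genes was the higher and the control-only share the lower.

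The share of knockout-only regions was higher the longer the gene, and that of control-only regions did not run in parallel. Of regions away from gene ends, 30.6% were knockout-only in genes of 500 kb or more, against 27% in genes of 200 to 500 kb, 23.9% at 100 to 200 kb, 19.1% at 50 to 100 kb and 16.5% below 50 kb. The control-only share was 17.1%, 15.5%, 17.7%, 23.3% and 30.1% in the same order of gene length. There were 1.79 knockout-only regions per control-only region in very long genes, against 0.547 in genes under 50 kb. Regions between genes, with 26.9% knockout-only and 15.0% control-only (1.80 per control-only region), stood close to those of very long genes. The balance towards the knockout list was thus not particular to very long genes: intergenic regions had the same ratio, although their knockout-only share was lower.

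**Figure D1:**
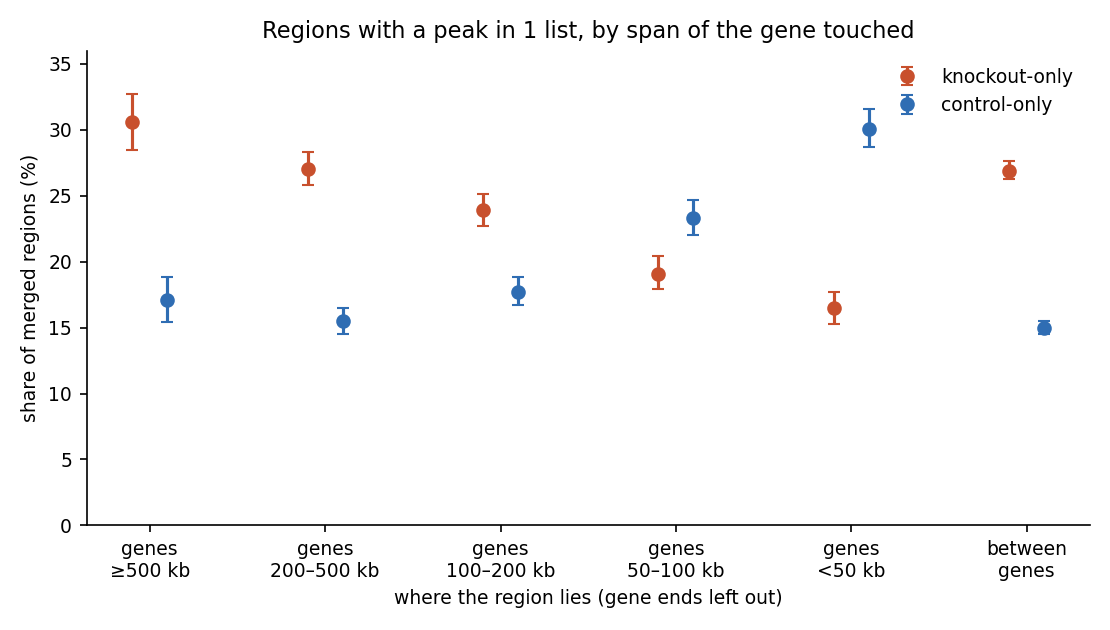
Share of merged regions (%, vertical axis) that were knockout-only (orange) or control-only (blue), by span of the longest protein-coding gene touched and for regions between genes; gene ends are left out and bars are exact 95% intervals for counting error. The knockout-only share is 30.6% in the longest genes and 16.5% in the shortest, and the control-only share 17.1% and 30.1%.

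Weak peaks are less often shared, so the regions were also set beside others of like strength. Of the 1620 regions with a knockout peak, 36.9% had no control partner, against 29.0% for regions of shorter genes brought to the same spread over 10 equal parts of the knockout list by fold, and 31.6% for all other regions away from gene ends. Of the 1356 with a control peak, 24.6% had no knockout partner, against 25.3% and 24.5% in the same comparisons. At matched strength the knockout side was thus above the other regions and the control side level with them. In the weakest of these 10 parts, 70.1% of regions in very long genes had no partner, against 60.7% in shorter genes; in the fifth part the values were 27% and 19.6%, and in the strongest both were 0%.

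**Figure D2:**
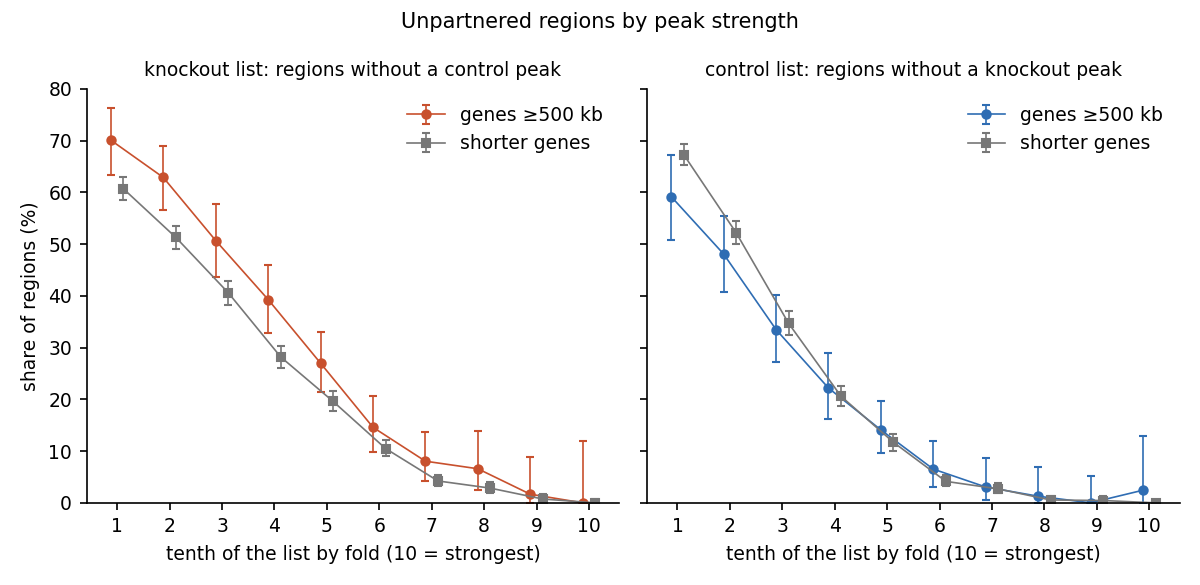
Share of regions without a peak in the other list (%, vertical axis) over 10 equal parts of the list ranked by fold (horizontal axis, 10 the strongest), for the knockout list on the left and the control list on the right; coloured circles are very long genes, grey squares shorter genes, and bars exact 95% intervals for counting error. On the left the circles lie above the squares from part 1 (70.1% and 60.7%) to part 9 (1.67% and 0.735%). On the right they lie below the squares in parts 1 to 3 and in part 9, and above them in the other parts.

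Strong regions seen in 1 genotype were few. Strong here means a best peak in the upper 50% of its list by fold, with the other list silent within 1 kb on either side. Very long genes held 45 strong knockout-only regions (2.3%) and 14 strong control-only regions (0.717%), against 1.48% and 0.619% of all merged regions and against 2.11% and 0.811% of regions between genes. Knockout-only regions had a median fold of 3.15 and a median width of 811 bp, and control-only regions a median fold of 3.09 and a median width of 692 bp. Shared regions were wider (median 1954 bp) and stronger, with a median fold of 5.02 in the knockout list and 4.58 in the control list. The nearest peak of the other list was a median of 31.4 kb away from a knockout-only region and 47.2 kb away from a control-only region, so most were separate sites rather than edges of a shared one: 14.6% of knockout-only and 11.7% of control-only regions had one within 5 kb.

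Within shared regions, knockout peaks also covered more sequence. They covered 2.50 Mb in 1040 peaks in the knockout list and 2.16 Mb in 1051 peaks in the control list. The knockout peaks were the longer in 635 shared regions (62.1%) and the control peaks in 387 (37.8%), whereas over all shared regions of the genome the values were 50.6% and 49.3%. This share also ran with gene length: knockout peaks were the longer in 56.6% of shared regions in genes of 200 to 500 kb and in 42.4% in genes under 50 kb, and in 58.9% between genes. Over all members, 1637 knockout peaks covered 3.10 Mb (mean width 1891 bp) and 1384 control peaks 2.44 Mb (mean 1764 bp). Relative to the median of its own list, the background under shared peaks was 1.02 in the knockout list and 0.985 in the control list in very long genes, and 1.02 and 1.04 in genes under 50 kb; its part in these shares was not tested.

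Acetylation was concentrated in a minority of the genes. Of the 314, 258 held at least 1 region and 56 held none. The median was 4.5 regions per gene, the most was 35, and 54 genes held 50% of the regions. The 4 longest genes were nearly empty: RBFOX1, a neuronal splicing factor gene, and PTPRD, a receptor tyrosine phosphatase gene, had 0 regions, CNTNAP2, of the neurexin family, had 1 shared region, and DMD, which encodes dystrophin, had 1 knockout-only region with a fold of 3.76. Genes with a peak at the annotated 5′ end in both lists (96 of the 262 whose strand was known) held 11 regions per Mb, and the 153 with none there held 6.07 per Mb. By this measure the classes differed little, with 29.1% knockout-only and 14.9% control-only regions where the 5′ end was acetylated in both lists, and 30.7% and 17.5% where it was not. With every listed start of the gene counted, the groups differed more: regions were 28.9% knockout-only, 12.3% control-only (10.4 to 14.6) and 58.7% shared (55.6 to 61.8) in the 101 genes with a start acetylated in both lists, and 33.4%, 22% (18.5 to 25.8) and 44.6% (40.3 to 49) in the 141 with none. A start can itself lie in a member region, so this grouping is not independent of the classes. The 9 genes with a 5′ end peak in the control list alone had 54 regions, 33.3% of them knockout-only and 35.2% control-only.

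The direction differed from gene to gene. Knockout-only regions outnumbered control-only ones in 133 genes, control-only outnumbered knockout-only in 78, and 47 were even. Over the 157 genes with at least 5 regions, the knockout-only share averaged 30.3% (SD 20.8 over genes) and the control-only share 19.1% (SD 22.6). Of 102 genes with at least 4 genotype-only regions, 63 held both kinds, 27 knockout-only ones alone and 12 control-only ones alone. The 12 genes with the largest excess, 6 in each direction, held 12.9% of all knockout-only and 14.7% of all control-only regions; without regions touching them, a comparison added after the data had been seen, the shares were 29.8% and 16.3%.

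**Figure D3:**
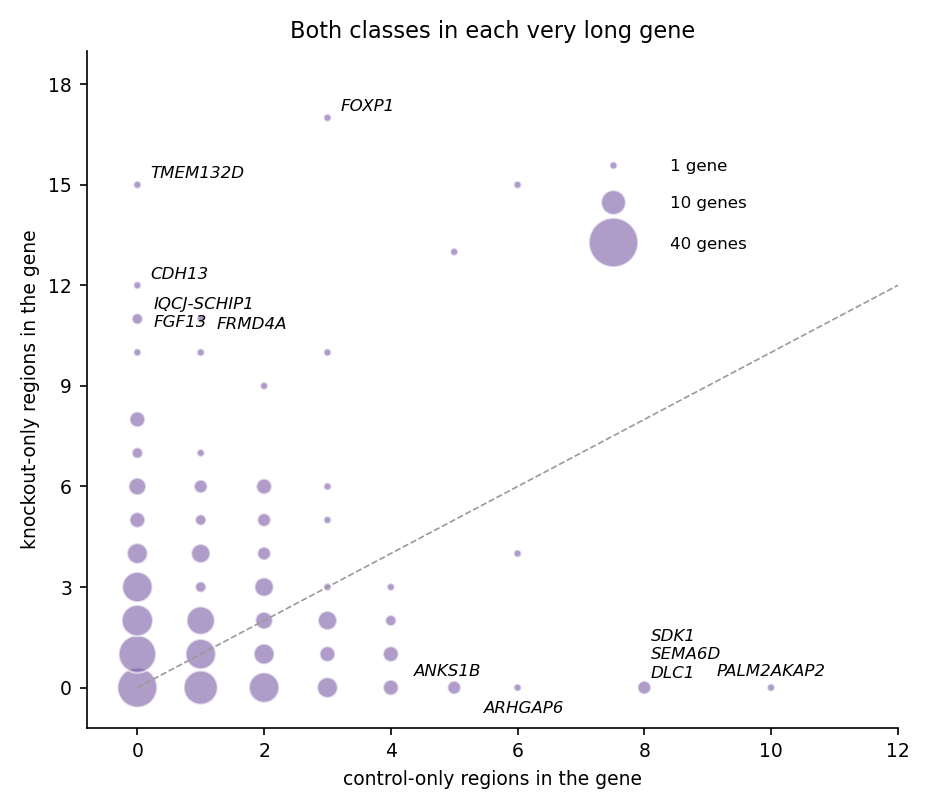
Number of knockout-only (vertical axis) against control-only regions (horizontal axis) in each very long gene with at least 1 region; circle area gives the number of genes at a point and the dashed line marks equal numbers. The labelled genes are the 6 with the largest excess on each side, with ties in sixth place (KAZN with FRMD4A, C12orf42 and SLC24A2 with ANKS1B) going to the gene with more regions, then by symbol; FOXP1 had 17 knockout-only and 3 control-only regions and PALM2AKAP2 had 0 and 10.

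The 12 genes richest in acetylated regions included developmental regulators, adhesion genes and cytoskeletal genes, and 10 of them had more knockout-only than control-only regions. TENM2, a teneurin adhesion receptor, held the most, with 13 knockout-only, 5 control-only and 17 shared. FRMD4A, a scaffold of epithelial polarity, had 11, 1 and 21 in that order, and FOXP1, a forkhead repressor, 17, 3 and 11. RAD51B, a homologous recombination gene, had 10, 3 and 18, LPP, a LIM protein of focal adhesions, 15, 6 and 9, and TENM3, another teneurin, 9, 2 and 18. KAZN, which encodes the junction-associated protein kazrin, had 10 knockout-only, 0 control-only and 13 shared regions. PALM2AKAP2 (0, 10 and 14) ran the other way, and HIVEP3, a zinc-finger transcription factor gene, was even (3, 3 and 17), though with a −log10 q-value of at least 5 it had 6 knockout-only and 0 control-only regions. CAST (6, 2 and 20) encodes calpastatin, an inhibitor of calpain proteases, and RANBP2 (5, 1 and 19) a nuclear pore protein, but their RefSeq spans run over neighbouring genes, and IQCJ-SCHIP1 (11, 0 and 15) is a readthrough that overlaps SCHIP1, so regions there cannot be assigned to 1 gene. Without regions touching CAST or RANBP2, also compared after the data had been seen, the knockout-only share was 30.8% and the control-only share 17.4%.

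**Figure D4:**
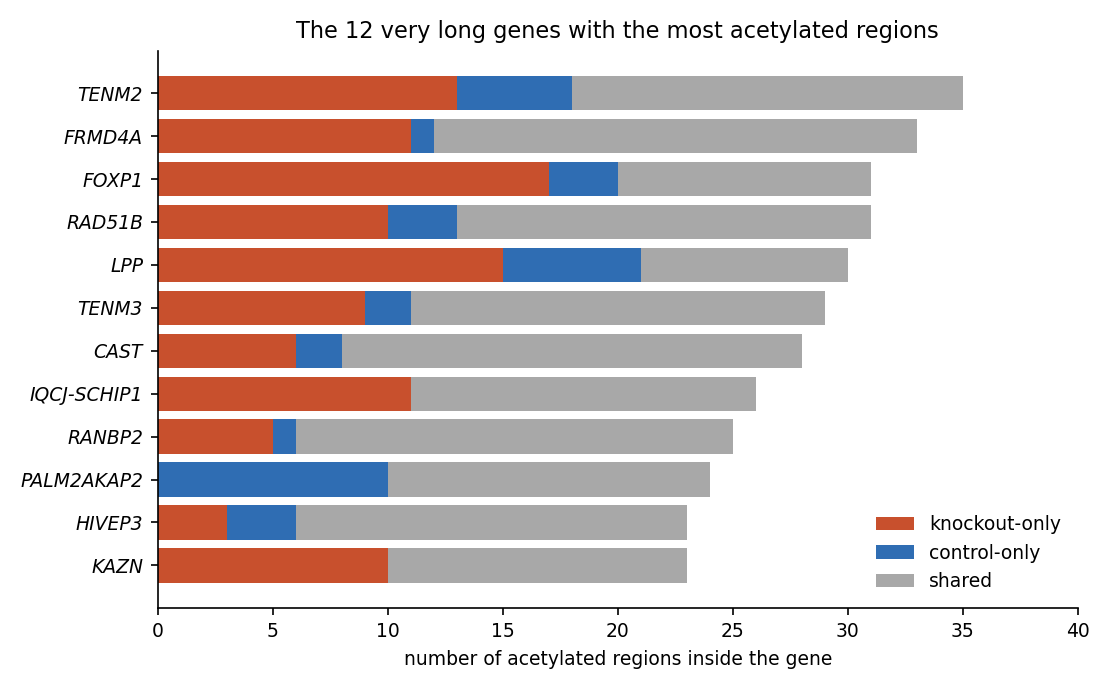
Number of acetylated regions (horizontal axis) in the 12 very long genes with the most, split into knockout-only (orange), control-only (blue) and shared (grey). TENM2 has 35 regions; PALM2AKAP2 is the 1 gene of these with no knockout-only region, and IQCJ-SCHIP1 and KAZN have no control-only region.

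FOXP1 combined strong shared sites with a long stretch acetylated in the knockout list alone. On chromosome 3 its internal promoter region (chr3:71061086-71067885), which holds the start printed above, had a fold of 17.9 in the knockout list and 14.9 in the control list. Between 71140583 and 71252493 lay 8 consecutive knockout-only regions over 112 kb, with folds of 2.55 to 5.99, and a further 4 lay between 71389725 and 71467076, with folds of 2.83 to 7.43. Its 3 control-only regions, with folds of 2.3 to 3.94, lay at the lower-coordinate end of the gene, which is its 3′ side. Within 500 kb either side of FOXP1, the classes stood at 2 knockout-only, 1 control-only and 6 shared. The background under its peaks, relative to the median of each list, was 0.850 in the knockout list and 1.18 in the control list, and its part in the excess was not tested.

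TMEM132D, CDH13 and FGF13 had among the largest excesses, each with no control-only region. TMEM132D, a membrane protein gene of the nervous system, had 15 knockout-only regions with folds of 2.49 to 6.72, and its peaks covered 32.5 kb in the knockout list and 4.79 kb in the control list. Its 6 shared regions had folds of 4.95 to 8.04 in the knockout list and 3.01 to 4.33 in the control list. CDH13, which encodes T-cadherin, had 12 knockout-only regions (folds 2.59 to 7.03) and 5 shared ones, and 7 knockout-only regions followed each other over 366 kb. The strongest shared region of CDH13 lay near the lower-coordinate end of the gene, with a fold of 14.9 in the knockout list and 19.7 in the control list, so the gene was acetylated in both genotypes.

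FGF13, an intracellular relative of the fibroblast growth factors that binds sodium channels, was acetylated almost wholly in the knockout list. It had 11 knockout-only regions with folds of 2.86 to 6.97 and 1 shared region, with a fold of 7.02 in the knockout list and 3.20 in the control list. The first 10 of the knockout-only regions followed each other over 302 kb, the longest run by number in any very long gene. Within 500 kb either side, FGF13 had no region to compare, TMEM132D had 1 knockout-only, 0 control-only and 4 shared, and CDH13 1, 1 and 15. Around the other 2 genes of largest knockout-only excess, the classes stood at 5, 3 and 19 for IQCJ-SCHIP1 and at 5, 2 and 17 for FRMD4A. The relative background under peaks was 0.580 in the knockout list and 0.611 in the control list for FGF13, 0.885 and 0.698 for TMEM132D, and 1.02 and 1.22 for CDH13. For FRMD4A it was 1.37 in the knockout list and 0.897 in the control list, and for IQCJ-SCHIP1 0.799 and 0.867. Its part in these excesses was not tested. Peaks were also cut to a −log10 q-value of at least 5 in both lists, and regions were then classed anew. Knockout-only regions then numbered 7 in FGF13, 9 in CDH13, 10 in FOXP1 and 5 in IQCJ-SCHIP1. Control-only ones numbered 0, 1, 1 and 2 in the same order, and TMEM132D had 16 and 0. These are not counts of regions that survived the cut, since some were shared before it. The shared region of FGF13 (−log10 q-value 14.3 in the knockout list, 2.27 in the control list) became knockout-only in this way.

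On the control side, PALM2AKAP2 and DLC1 kept many shared regions, and SDK1, SEMA6D, ARHGAP6 and ANKS1B had almost none. PALM2AKAP2 had 10 control-only regions with folds of 2.42 to 7.82, and its peaks covered 42.0 kb in the knockout list and 66.0 kb in the control list. DLC1, which encodes a GTPase-activating protein known as a tumour suppressor, had 8 control-only regions (folds 2.79 to 4.13) and 8 shared ones. In this gene 4 control-only regions followed each other over 16.4 kb. The widest region of all 1953 also lay in DLC1: 26.4 kb long, it held 4 peaks covering 21.3 kb in the knockout list (fold 13.6) and 1 peak covering 26.4 kb in the control list (fold 16.8). The excess of DLC1 rested on weak peaks, since with both lists held to a −log10 q-value of at least 5 it had 2 knockout-only and 0 control-only regions. At the same threshold PALM2AKAP2 had 1 knockout-only and 4 control-only regions.

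SDK1, an immunoglobulin adhesion molecule of synapses, had no knockout peak anywhere in its span. Its 8 control-only regions lay over 668 kb, with folds of 2.85 to 7.64, and its 5′ end also had a peak in the control list alone. SEMA6D had 8 control-only regions with folds of 2.76 to 4.48, among them the promoter printed above, and 1 shared region, with a fold of 3.76 in the knockout list and 5.01 in the control list. ARHGAP6, a GTPase-activating protein gene with a 5′ end peak in the control list alone, had 6 control-only regions (folds 2.76 to 4.48) and 1 shared region. ANKS1B, a postsynaptic protein gene, had 5 control-only regions (folds 2.54 to 4.04) and 1 shared region. The surroundings of these 4 genes leaned the same way, though many regions there were shared. Within 500 kb, knockout-only, control-only and shared regions numbered 0, 6 and 3 around SEMA6D and 0, 5 and 4 around ARHGAP6. They numbered 4, 9 and 15 around SDK1, and 2, 5 and 11 around ANKS1B. With a −log10 q-value of at least 5, which removed more control than knockout peaks, control-only regions numbered 3 in SDK1, 3 in SEMA6D, 1 in ARHGAP6 and 2 in ANKS1B, and knockout-only ones 0 in each. Around PALM2AKAP2 the knockout-only, control-only and shared numbers within 500 kb were 5, 5 and 11, and around DLC1 2, 1 and 3.

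**Figure D5:**
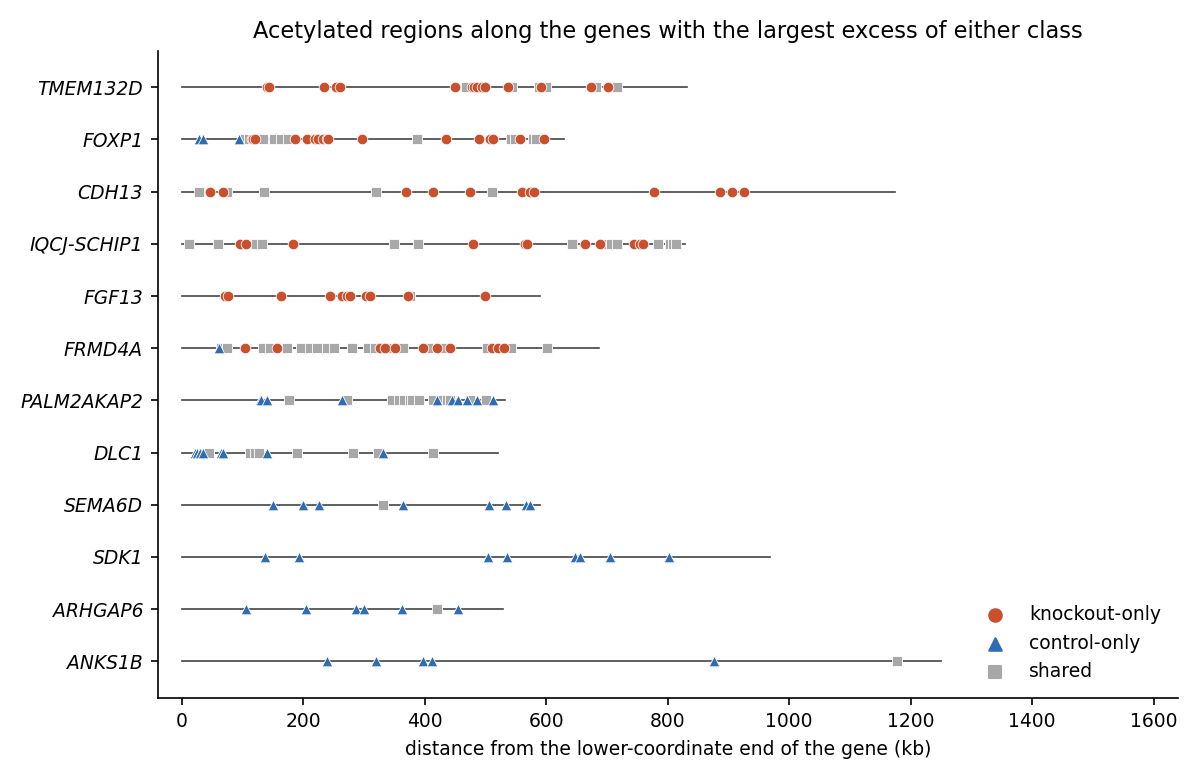
Position of each region along the 6 genes with the largest knockout-only excess (upper rows) and the 6 with the largest control-only excess (lower rows), as distance from the lower-coordinate end of the gene (kb); orange circles are knockout-only, blue triangles control-only and grey squares shared. The line is the span of the gene. FGF13 has 11 circles and 1 square, and SDK1 has 8 triangles and no other symbol.

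Neighbouring genotype-only regions of a gene were of the same kind more often than the balance of the classes alone would give. Of 706 pairs of genotype-only regions that followed each other in the same gene, shared ones passed over, 388 were both knockout-only, 146 both control-only and 172 unlike, so 75.6% were alike. As 64.2% of genotype-only regions were knockout-only, that balance alone gives 54.0%; no test was made. The shares alike were 69.3% in genes of 200 to 500 kb and 67.1% in genes of 100 to 200 kb, where the balance gives 53.7% and 51.1%. Runs of at least 4 regions of 1 class with no other region between them numbered 17 for knockout-only and 8 for control-only. Besides those above, PDE1C, a cyclic nucleotide phosphodiesterase gene, had 8 knockout-only regions in a row over 182 kb, and LPP had 5 over 126 kb and another 5 over 62.7 kb. TENM2 had 4 control-only regions in a row over 50.2 kb. Its 13 knockout-only regions lay beyond them but formed no such run, since shared regions and a control-only region lay between them. Neighbouring regions share a locus, so a run is not a count of independent events.

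Position along the gene made little difference. Over 5 equal parts from the 5′ end, the knockout-only share was 26.7%, 31.3%, 31.5%, 33.2% and 28.2%, and the control-only share 18.1%, 17.0%, 13.5%, 16.3% and 18.1%, over 1691 placements in the 262 genes of known strand. The 95% intervals of all 5 knockout-only shares overlapped, as did those of the control-only shares. Of the 22 chromosomes with such regions, 17 had more knockout-only than control-only ones and chromosome 7 had 32 of each. Control-only regions outnumbered knockout-only ones on 4, namely 9 (10 knockout-only, 22 control-only), 11 (8 and 12), 15 (9 and 16) and 17 (7 and 8). On chromosome 3, where FOXP1, LPP and IQCJ-SCHIP1 lie, 100 regions were knockout-only and 26 control-only. Chromosome 19 has no gene of this length.

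The genes were also grouped by function into 8 lists, of which some genes belong to more than 1. Receptor tyrosine phosphatase, kinase and growth factor genes had the highest knockout-only share, with 42 of 94 regions knockout-only (44.7%, 34.4 to 55.3) and 6 control-only (6.38%, 2.38 to 13.4), against 30.6% and 17.1% over all very long genes. NRG1, an ERBB receptor ligand, had 5 knockout-only, 0 control-only and 17 shared regions, PTPRG, a receptor phosphatase, 6, 1 and 9, and PTPRM 4, 2 and 10. FGF13 gave 11 of the 42. ERBB4, the neuregulin receptor, had 4, 0 and 2, while ALK, a receptor kinase, EPHA6, an ephrin receptor, and PTPRT and PTPRD, both receptor phosphatases, had 0 regions. Kinase, phosphodiesterase and lipid signalling genes had 37 of 116 knockout-only (31.9%) and 9 control-only (7.76%), led by PRKCE, a protein kinase C (2, 0 and 17), and PDE4D, a cAMP phosphodiesterase (6, 2 and 10).

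Cytoskeleton, cell polarity and related signalling genes had 69 of 196 regions knockout-only (35.2%) and 23 control-only (11.7%). Besides FRMD4A and LPP, PARD3, a polarity scaffold, had 10 knockout-only, 1 control-only and 9 shared regions, and ANK3 had 6, 3 and 10. Transcription and RNA-processing factor genes had 57 of 165 knockout-only (34.5%) and 25 control-only (15.2%). Besides FOXP1, GLIS3, a zinc-finger factor, had 7, 0 and 9 and HDAC9, a histone deacetylase, 8, 0 and 8, whereas CAMTA1, a calmodulin-binding transcription activator, had 4, 6 and 12. FOXP1 thus gave 17 of the 57.

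Neuronal adhesion and synapse genes were the most evenly divided, with 52 of 187 regions knockout-only (27.8%) and 41 control-only (21.9%). Of the 39 very long genes of that list, 30 had a region, and TENM2 gave 35 of the 187 and TENM3 29. GPC6, a glypican, had 7 knockout-only, 1 control-only and 12 shared regions and GPC5 6, 2 and 4, while SHANK2, a postsynaptic scaffold, had 0, 4 and 3. Matrix, proteoglycan and secreted protein genes had 25 of 85 knockout-only (29.4%) and 14 control-only (16.5%), with ADAMTSL1, a matrix protein, at 1, 2 and 12. Ion channel and glutamate receptor genes had 22 of 69 knockout-only (31.9%) and 9 control-only (13.0%), with KCNMA1, a calcium-activated potassium channel, at 3, 0 and 16. Common fragile site genes had 29 of 79 knockout-only (36.7%) and 11 control-only (13.9%), with LRP1B, a lipoprotein receptor relative, at 3, 2 and 9, and FHIT, a hydrolase, at 6, 1 and 4. The 95% interval of the knockout-only share in the receptor list (34.4 to 55.3) lay above the 30.6% of all very long genes, but this rested on FGF13, since without it, as recomputed after the data had been seen, 31 of 82 regions (37.8%, 27.3 to 49.2) were knockout-only. The control-only share of that list was then 7.32% (2.73 to 15.2), and that of the kinase list without PDE1C 8.41% (3.92 to 15.4), both below the 17.1% of all very long genes. These intervals cover counting error only and are no test of a list.

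The knockout-only regions with the highest folds lay in ANXA8 (12), GSE1 (11.9), RAD51B (11.8 and 9.18), SEMA3A (9.79) and FARS2 (9.55). SEMA3A encodes a secreted guidance semaphorin and FARS2 a mitochondrial tRNA synthetase; ANXA8, an annexin gene, lies among near-identical copies, where reads can be misplaced. The RAD51B region at chr14:68598171-68600275 was 2.10 kb wide and lay 19.1 kb from the nearest control peak, and that of SEMA3A (chr7:84371410-84373616) lay 38.2 kb from one. The control-only regions with the highest folds lay in SHANK2 (15.1), MARCHF1, a ubiquitin ligase gene (8.22), PALM2AKAP2 (7.82), SDK1 (7.64), CDH4, a cadherin gene (6.70), and SMYD3, a methyltransferase gene (6.35). The SHANK2 region (chr11:70933781-70936210) stood at percentile 93.6 of the control list and lay 145 kb from the nearest knockout peak, and the SDK1 region (chr7:4005738-4007411) lay 605 kb from one.

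The strongest shared regions were in DLGAP1, SBF2, GSE1, ZFHX3 and SCHIP1. In DLGAP1, a postsynaptic scaffold gene, 1 region of 15.9 kb had a fold of 31.7 in the knockout list and 25.5 in the control list, and a second had 27 and 20.3. SBF2, a myotubularin relative, had 27.3 in the knockout list and 23.3 in the control list, and ZFHX3, a homeobox factor, 23.3 and 22. The widest shared regions after that of DLC1 were in TENM2 (22.7 kb), DLGAP1, SORCS2 (15.5 kb), CELF2 (15.0 kb) and LPP (14.9 kb). SORCS2, a sortilin-family receptor gene, was covered over 15.5 kb by 1 knockout peak and over 9.26 kb by 3 control peaks, whereas in TENM2 2 knockout peaks covered 18.4 kb and 1 control peak 22.6 kb. All 29 regions whose knockout peak was in the strongest 10% of its list had a control partner. Over all merged regions, all but 3 of 4233 such regions had one too.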

How the data were processed

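H3K27ac ChIP-seq peaks of MDA-MB-231 cells were compared by genotype, ARID1A knockout against control. The submitters' processing notes name Bowtie2 2.3.5.1, MACS2 2.2.6 and the build hg38; options, replicate pooling and library depth are not given in the sources used here, so depth is unknown. Per the file headers, the deposited lists give for each peak the pileup (a coverage signal), the fold enrichment (a ratio) and the −log10 p-value and q-value, all the authors' values. From these, merged regions, classes, shares with exact 95% intervals, strength-standardised shares and counts per gene were computed (Python 3.11.15; scipy 1.17.1; pandas 2.3.3; numpy 2.4.6) and plotted (matplotlib 3.10.9). Class counts were checked with bedtools 2.31.1, which gave the same numbers, and the code was tested on simulated data. Gene spans and promoter windows are those of RefSeq on GRCh38.p14, without exons; strand came from the promoter windows and was known for 262 of 314 genes. A member touching several very long genes was counted in each, as 18 were.

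The members, gene lists and rules were chosen with earlier results of these data known. Named were the 12 genes with most regions, the 6 with the largest excess either way, the 4 longest, the 6 knockout-only and 6 control-only regions of highest fold, the 6 strongest shared and 6 widest, and up to 4 genes per list with most regions; ERBB4, ALK, EPHA6, PTPRT, PDE1C, C12orf42, SLC24A2 and the genes with genotype-only promoters were added after their values were seen. Alternatives changed gene span, end window, peak threshold and overlap rule. Values of 1 gene that the rule names are not reported here.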

Additional observations from a re-analysis of the deposited data

How the results depend on the processing

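Of 84 recomputed values (7 results under 12 alternatives), 68 stayed near the reported value, 16 moved and 0 reversed. Only the ratio of the classes and the difference from shorter genes could be labelled as reversed. Some values could not change. Keeping only regions wholly inside the gene left every value as it was, since regions at gene ends were already left out. The 25% rule given below could change neither the number of regions nor the covered length. In each alternative knockout-only regions outnumbered control-only ones. With a gene span of at least 300 kb there were 4431 regions, with peaks covering 7.24 Mb in the knockout list and 5.94 Mb in the control list. With at least 1 Mb there were 425, covering 0.674 Mb in knockout and 0.507 Mb in control, of which 14.4% were control-only, with 2.25 knockout-only per control-only region. With a −log10 q-value of at least 5 there were 1189 regions, 36.4% knockout-only and 12.2% control-only, a ratio of 2.99. This cut removes more control than knockout peaks. It makes a shared region knockout-only where the control peak alone is removed. In the upper 50% of each list there were 613 regions, covering 1.79 Mb in knockout and 1.42 Mb in control. Where a shared region needed both lists over at least 25% of its covered length, 33.0% were knockout-only. At that −log10 q-value, of 24 named genes 12 kept a similar difference between knockout-only and control-only regions, 11 moved and 1 reversed. The 12 include RBFOX1, PTPRD and CNTNAP2, which had no knockout-only or control-only region before the cut. The difference was 2 for DLC1, and shrank to 3 for IQCJ-SCHIP1, −3 for PALM2AKAP2, SDK1 and SEMA6D and −1 for ARHGAP6. The cause of these shifts was not tested. No paired analysis was possible because each genotype has a single peak list, and for the same reason no replicate could be left out.

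A peak present in 1 list alone can be a site just under the threshold in the other; library depth is unknown, and the background differed between the lists (median 6.05 in knockout, 4.48 in control), and library differences and the knockout cannot be told apart. Exons and introns were not distinguished.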
